A study of Mus musculus with 502 samples.

Results

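Immune cells of mouse kidney after 2 days of cold storage were set against cells of freshly dissociated kidney from the same sequencing pool, pool IM793. All cells whose column carried that pool and either timepoint were taken, which gave 78 cells of day 2 and 75 fresh cells of the 502 cells of the series. Both groups came from CD1 mice of about 3 weeks, whose kidneys were harvested without perfusion. Fresh kidneys were dissociated at once, and day 2 kidneys were first kept intact in HTS-FRS, a hypothermic preservation solution, at 4 °C. All kidneys were then minced, digested warm with Liberase DL, depleted of red cells by lysis, and sorted for single cells negative for propidium iodide and positive for Cd45, the surface protein shared by leukocytes. Each cell was lysed in its own well and its polyadenylated RNA was read by an adaptation of SmartSeq2, a protocol that covers whole transcripts and has no molecular identifiers. Both kidneys of 1 mouse were pooled at each timepoint, by the methods of the study, and the labels tie no cell to an animal, so each group was 1 sample. Cells are not replicates, no test was run, and time in storage, animal, dissociation and sort cannot be told apart. Fresh cells of a second pool, pool IM834, and cells stored for 6 h in pool IM793 are given beside some values, because the fresh cells of pool IM793 serve as the comparator throughout.

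Kidney holds resident macrophages, which make the complement proteins C1qa, C1qb and C1qc, together with lymphocytes and with blood leukocytes that remain in vessels of an organ that was not perfused. Immediate early genes and heat shock chaperones are induced within minutes to hours by many stimuli, tissue dissociation and rewarming among them. Interferon response genes are induced by interferons and encode antiviral proteins, guanylate binding proteins and parts of the antigen presentation machinery.

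The table held 46603 gene rows, of which 17004 had a read in a cell of either group. Counts on genes ran from 173824 to 1390599 per cell at day 2 (median 913832) and from 1759 to 1139332 in fresh cells (median 712369), and 1 fresh cell and no day 2 cell was below 100000. No index pair was shared by both groups. Mitochondrially encoded transcripts took a median of 3.11% of counts at day 2 and 2.02% in fresh cells, and the 18S ribosomal RNA row took 4.36% and 5.79%. Levels are given below as counts per 1e6 counts on genes (rpm), averaged over cells. Low counts of marker genes occurred outside their class: S100a8, a neutrophil calprotectin subunit, had reads in 10 of 49 fresh cells of other marker classes and reached 10 rpm in 0 of them. Cd74, an MHC class II chaperone, reached it in 8 of 30 fresh and 1 of 18 day 2 T and neutrophil marker cells. A gene was called present in a cell at 10 rpm or more. The leukocyte label held, since Ptprc, which encodes Cd45, was read in 71 of 78 and 73 of 75 cells.

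Cell composition differed widely between the samples. Cells were put in a class when at least 2 markers of it reached 10 rpm, and "other myeloid" cells met a general myeloid set (Csf1r, Lyz2, Cst3, Itgax, Flt3, Cybb) but none of the B, T, NK, C1q or neutrophil sets. The levels of these markers within their own class are therefore a description. B marker cells made up 29 of 78 day 2 cells (37.2%, exact 95% binomial interval 26.5 to 48.9%) and 0 of 75 fresh cells, which allows up to 4% by a floor of 3 cells (exact upper limit 4.80%). Neutrophil marker cells made up 22 of 75 fresh cells (29.3%, 19.4 to 40.98%) and 1 of 78 day 2 cells (1.28%, 0.0325 to 6.94%). Other myeloid marker cells made up 33 fresh cells (44%, 32.5 to 55.9%) and 5 day 2 cells (6.41%, 2.11 to 14.3%). For these 3 classes the intervals of day 2 and fresh did not overlap. C1q macrophage marker cells were 16 at day 2 (20.5%, 12.2 to 31.2%) and 7 in fresh cells (9.33%, 3.84 to 18.3%), and T marker cells were 17 (21.8%, 13.2 to 32.6%) and 8 (10.7%, 4.72 to 19.9%). The intervals of these 2 classes overlapped. The intervals cover counting error only, not differences between animals or sorts.

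**Figure D1:**
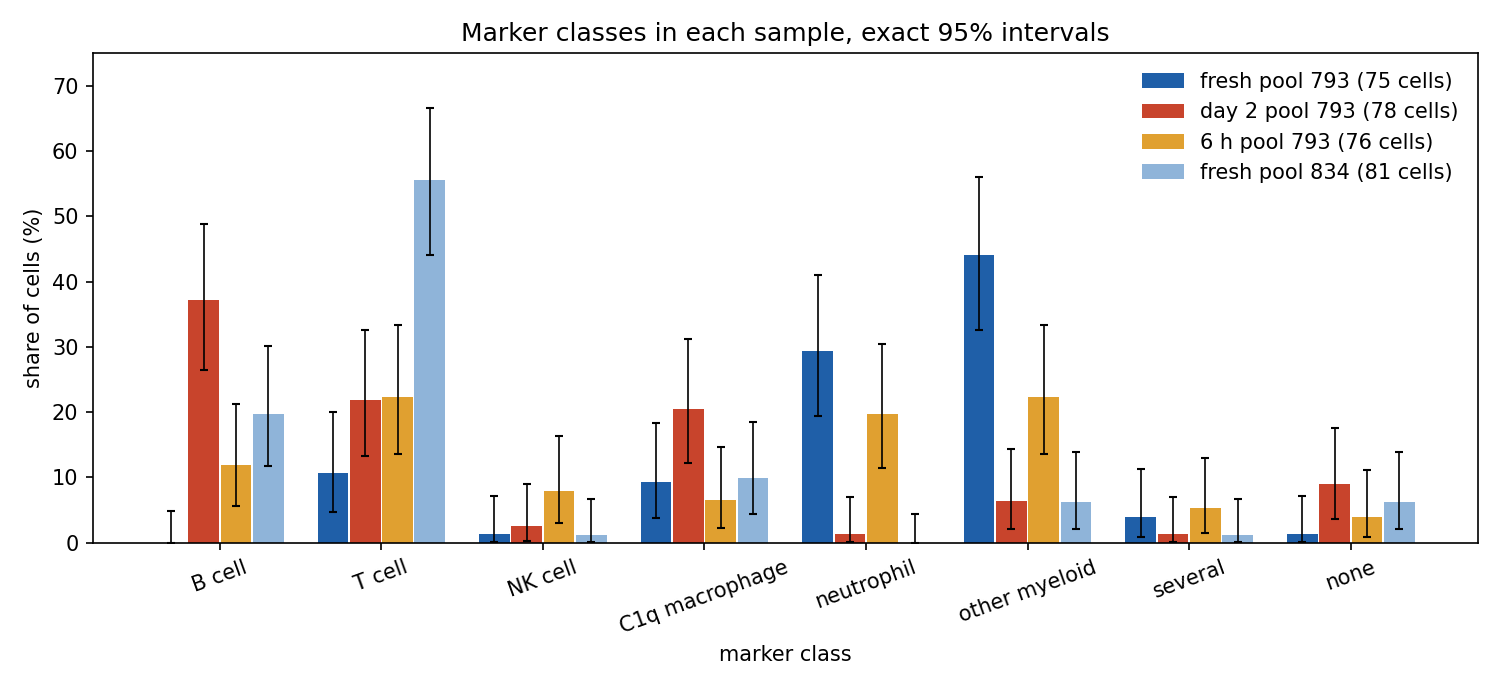
Share of cells (%) in each marker class for fresh and day 2 cells of pool IM793, cells of 6 h in pool IM793 and fresh cells of pool IM834; bars are shares and lines exact 95% binomial intervals. B marker cells were 29 of 78 at day 2 and 0 of 75 in fresh cells of pool IM793, and neutrophil marker cells were 1 and 22.

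The fresh samples of both pools also differed from each other. Fresh cells of pool IM834 held 16 B marker cells of 81 (19.8%), 45 T marker cells (55.6%) and 0 neutrophil marker cells, which allows up to 3.7% by that floor (exact upper limit 4.45%). Cells of 6 h in pool IM793 held 9 B (11.8%), 17 T (22.4%), 15 neutrophil (19.7%) and 17 other myeloid marker cells (22.4%) of 76, between fresh and day 2 of the same pool for the B, neutrophil and other myeloid classes. With fresh cells of both pools as the comparator, T marker cells had the larger share in fresh cells, 33.97% against 21.8% at day 2.

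In B marker cells of day 2, Cd79a and Cd79b, the signalling chains of the receptor, reached 10 rpm in each of the 29 cells, with a median of 3603 rpm for Cd79a (highest 8460 rpm). Ms4a1, the surface protein CD20, was present in 20. All 29 cells had Ighm, the constant region of IgM, at 10 rpm or more, and 26 also had Ighd, that of IgD. No cell had a read count of 10 rpm for any IgG, IgA or IgE constant region, and Jchain, which marks antibody-secreting plasma cells, had no read in either group. The kappa constant gene Igkc was present in all 29 cells, and a lambda constant gene (Iglc1, Iglc2 or Iglc3, whose near-identical sequences can share reads) was also present in 27. Igkc was the higher of the 2 chains in 21 cells and the summed lambda genes in 8. The leading heavy chain V segment differed between most cells: 25 segments led in 29 cells, with at most 2 cells sharing one, and 23 kappa V segments led, with at most 4 cells sharing one.

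In fresh cells of pool IM793 the B cell genes were near 0. Cd79a, Ms4a1, Igkc, Iglc1, Iglc2 and Iglc3 had no read in any of the 75 cells. Cd79b was read in 1 cell. Ighm was the exception, at a mean of 301 rpm over fresh cells and 3339 rpm at day 2. In fresh cells it was present in 14 of 33 other myeloid, 6 of 7 C1q macrophage, 6 of 22 neutrophil and 2 of 8 T marker cells. At day 2, outside B marker cells, Ighm was present in 9 of 17 T and 9 of 16 C1q macrophage marker cells and in 0 of 5 other myeloid cells.

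Neutrophil marker cells were described from fresh cells, because day 2 held 1. S100a8 and S100a9, the calprotectin subunits, were present in 21 and 19 of the 22 fresh cells, with medians of 10459 rpm and 12972 rpm. Csf3r, the receptor of the granulocyte growth factor, was present in 20 of 22, and Cxcr2, a chemokine receptor of mature neutrophils, in 12 of 22. The single day 2 cell had S100a8 at 3867 rpm, S100a9 at 10179 rpm, Csf3r at 7529 rpm and Cxcr2 at 2243 rpm. Retnlg was absent from it and was present in 11 of 22 fresh cells.

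Most of the 33 other myeloid marker cells of fresh kidney carried some monocyte genes, but not the whole set. Of the 6 monocyte markers, 4 were read in enough cells of this class, day 2 and fresh pooled, to be compared. The remaining ones were read in too few cells. Plac8 was present in 32 of 33, Lyz2 in 31, Ccr2, the receptor that guides monocytes out of marrow, in 26, and Ly6c2, a marker of classical monocytes, in 25. Treml4 and Fcgr4, which are high in patrolling monocytes, were present in 22 and 20. Xcr1 and Clec9a, markers of type 1 conventional dendritic cells, were present in 5 each. The 5 day 2 cells differed among themselves: Lyz2 was at 0, 13.4, 6328, 9556 and 32430 rpm, Ly6c2 at 0, 0, 0, 61.97 and 1714 rpm, and Cd74 at 1.98, 889, 1181, 2756 and 24108 rpm. One of the 5 had H2-Aa at 12257 rpm and the others had no read of it, and Flt3 was also read in 1 of the 5, at 1982 rpm. Of the genes the class rule used, Cst3 was read in each of the 5 (2866 to 16924 rpm) and Csf1r in 4.

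In C1q macrophage marker cells, mean C1qa was 3647 rpm over 16 day 2 cells and 3229 rpm over 7 fresh cells, C1qb 4675 and 3660 rpm, and C1qc 4404 and 3767 rpm. F13a1, which is high in monocytes, was present in 2 of the 7 fresh and in 0 of the 16 day 2 cells. Of the 6 monocyte markers, 2 were read in enough cells of this class to be compared, and both were higher at day 2 (log2 ratios 0.076 and 1.72). Pf4, known from platelets and also made by some tissue macrophages, was present in 10 of 16 day 2 and 2 of 7 fresh cells, with means of 398 and 41.1 rpm, and in 7 of 8 fresh cells of pool IM834.

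In T marker cells the mean of Cd3e was 787 rpm at day 2 and 673.5 rpm in fresh cells. Over Cd3e, Cd3d and Cd3g the log2 ratios ran from 0.22 to 1.15 in this class, and 2 of these genes were at least 2-fold higher at day 2. Among 17 day 2 cells, 7 had Cd4 without Cd8a or Cd8b1, 1 had a Cd8 gene without Cd4 and 9 had none of them. Among 8 fresh cells the numbers were 2, 2 and 4. NK marker cells were 2 and 1. Group 2 innate lymphoid cells, which respond to epithelial alarm cytokines, were sought with Gata3, Il7r, Rora, Il1rl1, Nmur1, Icos and Stab2: 4 day 2 cells had at least 4 of these at 10 rpm, all of them among the 7 cells with no class, and 1 fresh cell did. Nmur1 and Stab2 had no read in fresh cells of pool IM793 and were each present in 4 day 2 cells and in 4 fresh cells of pool IM834. The 1 day 2 cell that met several class sets (B, T and C1q) also had the most genes of all day 2 cells, 6305, and 3 fresh cells met pairs of sets.

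Other cells were rare. Of 10 kidney epithelial markers, 7 reached 10 rpm in some cell of each sample, in 6 of 78 day 2 and 10 of 75 fresh cells, with a median summed level of 0 rpm in both and highest values of 2925 and 3066 rpm. Of 5 endothelial markers only Pecam1, which leukocytes also make, and Kdr at day 2 or Egfl7 in fresh cells reached 10 rpm in any cell. Erythroid markers reached 10 rpm in 0 day 2 and 3 fresh cells, mast cell or basophil markers in 1 and 0, and plasmacytoid dendritic cell markers in 2 and 1. Xist, expressed from the inactive X chromosome, was present in 28 of 78 day 2 and 45 of 75 fresh cells, and the Y-linked genes Ddx3y and Eif2s3y had no read in either; in fresh cells of pool IM834, Ddx3y was present in 12 of 81 cells and Xist in 1.

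Over all cells, 6869 genes were read in 10% or more of the pooled day 2 and fresh cells. The log2 ratio of the group means, with 10 rpm added to each, had a median of 0.07 and an SD of 1.10 over genes. At least 4-fold higher at day 2 were 2.52% of genes and at least 4-fold lower 3.93% (270 genes), 6.45% in all. These counts describe 2 samples, and composition moves with them. Genes were named when the share of cells with a read moved the same way by at least 20 percentage points and no cell held 20% or more of the summed level. Genes known from B cells led the 15 highest ratios, among them Cd79a (1572 rpm at day 2 and 0 in fresh cells), Igkc (1285 and 0), Cd79b (1317 and 2.07), Ms4a1, Ighd, Fcer2a, Fcmr, Ly6d, Iglc2, Cxcr5, Siglecg, Iglc3, Hvcn1 and Tnfrsf13c, the receptor of the B cell survival factor BAFF. Their log2 ratios ran from 4.36 for Tnfrsf13c upward, beside 29 B marker cells at day 2 and 0 in fresh cells.

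The genes with the 15 lowest ratios included genes of neutrophils, monocytes and the interferon response. Trem1, an amplifying receptor of neutrophils and monocytes, had a mean of 6.62 rpm at day 2 and 1063 rpm in fresh cells, a log2 ratio of -6.01. S100a8 (49.6 and 2806 rpm), S100a9 (130.6 and 3458 rpm), Asprv1 (0 and 503 rpm) and Ifitm1 (22.7 and 985.5 rpm) were also among them, beside 1 and 22 neutrophil marker cells. Ly6i (0.611 and 459.5 rpm), Gpr141 (0 and 324 rpm), Klra2 (1.90 and 286.6 rpm), Treml4 (9.09 and 435 rpm), Wfdc17 (23.4 and 860 rpm), Tgm2 (0 and 281 rpm) and Smox (0 and 208.6 rpm) were read in 28 to 47 fresh cells each. Oas3 (0 and 383 rpm) and Oasl2 (18.6 and 603 rpm) belong to the oligoadenylate synthetase family of antiviral genes, and Cd274, the checkpoint ligand PD-L1, was at 4.95 and 422 rpm. Cd274 was present in 1 day 2 cell, 39 fresh cells, 16 of 76 cells of 6 h and 4 of 81 fresh cells of pool IM834.

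Genes of inducible HSP70 chaperones, Hspa1a and Hspa1b, were examined within each class. Their stretches before the RefSeq transcription starts (GRCm38, minus strand, 200 bases each, chr17:34972157-34972356 for Hspa1a and chr17:34959239-34959438 for Hspa1b) are printed because the counts of both genes moved together between the samples. Capitals mark a heat shock element core, GAANNTTC or TTCNNGAA, sought on either strand.
Hspa1a: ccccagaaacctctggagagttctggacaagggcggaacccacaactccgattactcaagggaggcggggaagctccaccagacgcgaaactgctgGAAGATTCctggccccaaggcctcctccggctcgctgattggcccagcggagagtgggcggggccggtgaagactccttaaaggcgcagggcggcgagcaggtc
Hspa1b: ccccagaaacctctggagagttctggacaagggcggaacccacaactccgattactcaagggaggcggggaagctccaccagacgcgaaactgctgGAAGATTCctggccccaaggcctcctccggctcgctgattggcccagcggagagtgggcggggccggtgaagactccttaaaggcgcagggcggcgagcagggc
The stretches were identical at 99.5% of positions, with the core at the same distance before the start in both. Of the 27025 genes with a RefSeq window of 250 bases before a start, 3932 (14.5%) held this core on either strand, as did 7 of the 11 heat shock chaperone genes with a window (Dnaja1, Hspa1a, Hspa1b, Hspb1, Hspd1, Hspe1 and Hsph1). A match of letters is not evidence of binding. Reads of near-identical copies cannot be assigned with certainty, so both genes are also given as a sum.

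Hspa1a had a mean of 704 rpm at day 2 and 58.9 rpm in fresh cells (log2 ratio 3.37), and Hspa1b 629 and 57.5 rpm (3.24). Either gene was present in 37 of 78 day 2 cells, 12 of 75 fresh cells, 26 of 76 cells of 6 h and 9 of 81 fresh cells of pool IM834. In C1q macrophage marker cells the summed level ran from 0 to 11794 rpm at day 2 (median 1335, present in 12 of 16) and from 0 to 1322 rpm in fresh cells (median 1.13, present in 3 of 7). In T marker cells it was present in 6 of 17 day 2 cells (highest 3159 rpm) and 1 of 8 fresh cells (227.4 rpm). In other myeloid marker cells the 5 day 2 values were 0, 0, 2384, 3517 and 7785 rpm, and 5 of 33 fresh cells were positive (highest 3143 rpm). B marker cells of day 2 were positive in 13 of 29 (highest 5982 rpm), those of 6 h in 3 of 9 and those of fresh pool IM834 in 0 of 16. Among these 4 samples the day 2 share was the highest in B and T marker cells, while in C1q macrophage marker cells 4 of 5 cells of 6 h and 4 of 8 fresh cells of pool IM834 were positive. In other myeloid marker cells 10 of 17 cells of 6 h and 0 of 5 fresh cells of pool IM834 were positive. The ranges of day 2 and fresh overlapped in T, C1q macrophage and other myeloid marker cells, each of which held day 2 cells at 0.

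**Figure D2:**
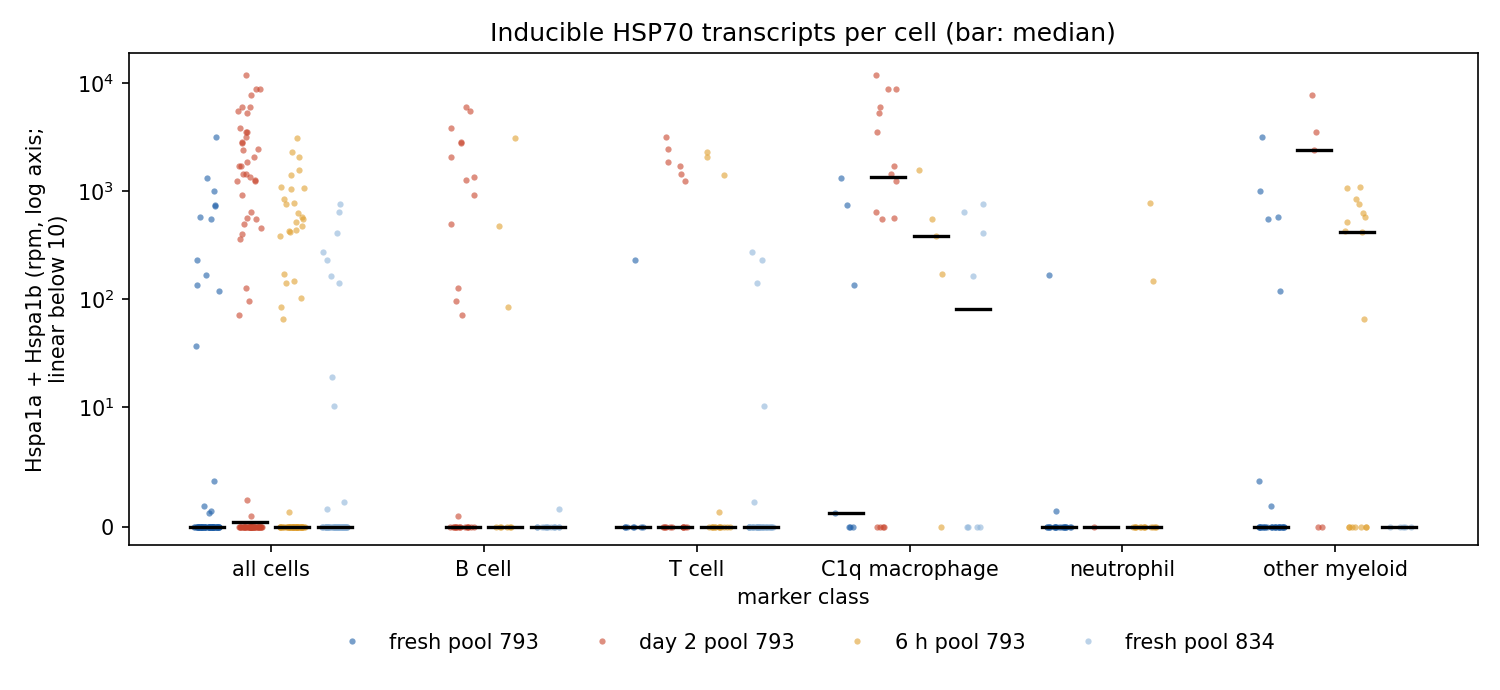
Summed Hspa1a and Hspa1b (rpm, log axis, linear below 10) per cell, by marker class and sample; points are cells and bars medians. Either gene was present in 37 of 78 day 2 cells and 12 of 75 fresh cells of pool IM793, and day 2 cells at 0 occurred in B, T, C1q macrophage and other myeloid marker cells.

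The other chaperones did not move as one group. Of 14 heat shock chaperone genes 13 were compared, 8 were higher at day 2 and 5 lower, beside 57.1% of all genes higher, with 3 past 4-fold, beside a background of 2.52%. The third was Dnajb1, the HSP40 partner of inducible HSP70, at 533.5 and 114.7 rpm (log2 ratio 2.12). Hsp90aa1, the inducible HSP90, was at 1547 and 472 rpm (1.69), with log2 ratios of 1.42 in C1q macrophage, 0.29 in T and 0.78 in other myeloid marker cells. The constitutive chaperones Hspa8 (0.29), Hsp90ab1 (0.39) and Hspa5 (-0.01) were close to the median of all genes, and Hsph1 was lower (-1.22). The list median was 0.39 over all cells, 0.01 in C1q macrophage, -0.037 in T and -0.066 in other myeloid marker cells. Of the cold-inducible RNA-binding proteins, Rbm3 was at 275 rpm at day 2 and 333 rpm in fresh cells, and Cirbp at 66.5 and 21.1 rpm. Their median log2 ratio was -0.19 in T, -0.76 in C1q macrophage and -0.77 in other myeloid marker cells, where the medians of all genes were 0.02, -0.0040 and -0.81.

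AP-1 and immediate early genes were mixed. Of 22 genes, 17 were higher and 5 lower, beside 57.1% of all genes higher, with 2 at least 4-fold higher (background 2.52%) and 1 at least 4-fold lower (3.93%), and the median log2 ratio was 0.37. Jun, a core AP-1 subunit, was present in 50 of 78 day 2 and 31 of 75 fresh cells (means 1638 and 352 rpm, log2 ratio 2.19). It was present in 22 of 29 B marker cells of day 2 and in 0 of 16 of fresh pool IM834, and in 7 of 17 T marker cells of day 2, 2 of 8 of fresh pool IM793 and 2 of 45 of fresh pool IM834. Egr1 was at 1579 and 412 rpm (1.91) and Egr2 at 430 and 48.9 rpm (2.90). Among the members with the highest means, Junb (log2 ratio 0.05) and Dusp1 (0.06) were nearly level and Nr4a1 was lower (-0.66). Fos, the partner of Jun, was lower in its share of cells, 45 of 78 against 65 of 75, although its mean was higher (4183 and 2494 rpm). Fosl2 was at 29.9 and 414.5 rpm (-3.41) and was present in 11 day 2 and 53 fresh cells. In C1q macrophage marker cells a median of 6.5 listed genes reached 10 rpm at day 2, 16 in fresh cells and 13.5 in fresh cells of pool IM834. The day 2 and fresh medians were 9 and 10 in T and 11 and 14 in other myeloid marker cells. Averaging log2(rpm + 1) over cells in place of rpm gave a list median of -0.88, the opposite direction from 0.37, where the median of all genes was -0.57.

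Interferon response genes were higher in the fresh cells of pool IM793. The 20 type I interferon genes had 15 members compared, of which 14 were lower at day 2, beside 57.1% of all genes higher, and 9 at least 4-fold lower (background 3.93%), with a median log2 ratio of -2.35. The 17 guanylate binding and interferon gamma genes had 14 compared, of which 12 were lower and 5 at least 4-fold lower, with a median of -1.48. One of these 14, Gbp5, had no read at day 2. Other members also met the filter mainly through fresh cells, such as Oasl2, read in 2 day 2 and 35 fresh cells. For such genes a lower value was nearly fixed by the filter, so these counts are a description. Gbp2, a guanylate binding protein, was present in 10 of 78 day 2 cells (mean 121.9 rpm) and 60 of 75 fresh cells (2465 rpm), a log2 ratio of -4.23. Irf7, a transcription factor of the interferon response, was present in 7 and 49 cells (102.3 and 655.5 rpm, -2.57). Ifitm3 was present in 11 and 63 cells (190 and 2163 rpm, -3.44), and Zbp1, a sensor of nucleic acids, in 2 and 50 (11.9 and 270 rpm, -3.67). Mx1 was the single type I member with a higher mean at day 2, and its 113.2 rpm came from 1 cell at 8827 rpm. Fresh cells of pool IM834 resembled day 2 in this respect: Gbp2 was present in 4 of 81 and Irf7 in 9. Cells of 6 h in pool IM793 lay between, with Gbp2 in 33 of 76 and Irf7 in 19.

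Counts per cell are given next. Of the 37 genes on both lists, fresh cells of pool IM793 had a median of 15 at 10 rpm or more (1 to 26), day 2 cells 3 (0 to 29), cells of 6 h 8 and fresh cells of pool IM834 5. In C1q macrophage marker cells the 7 fresh cells had 14 to 25 (median 22) and the 16 day 2 cells 2 to 29 (median 5). One day 2 cell had 29 and the next highest 9, so 15 of the 16 were below every fresh cell. Without that cell the median log2 ratio in this class was -2.14 for the type I list, against -0.51 with it, and -2.22 for the guanylate binding list, against -1.70. In each list 5 of the 16 genes compared then had no read at day 2 (1 and 3 with the cell), so these medians are a description and no count of lower genes is given. Other myeloid marker cells had 3, 3, 4, 6 and 9 genes at day 2 and 8 to 23 (median 16) in 33 fresh cells. T marker cells had 0 to 7 (median 3) and 2 to 16 (median 7), with 16 of 17 day 2 cells below the fresh median. Neutrophil marker cells of fresh kidney had 6 to 24 (median 14). Genes per cell also differed between the samples in each class, as described below, and its part in these counts was not tested.

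**Figure D3:**
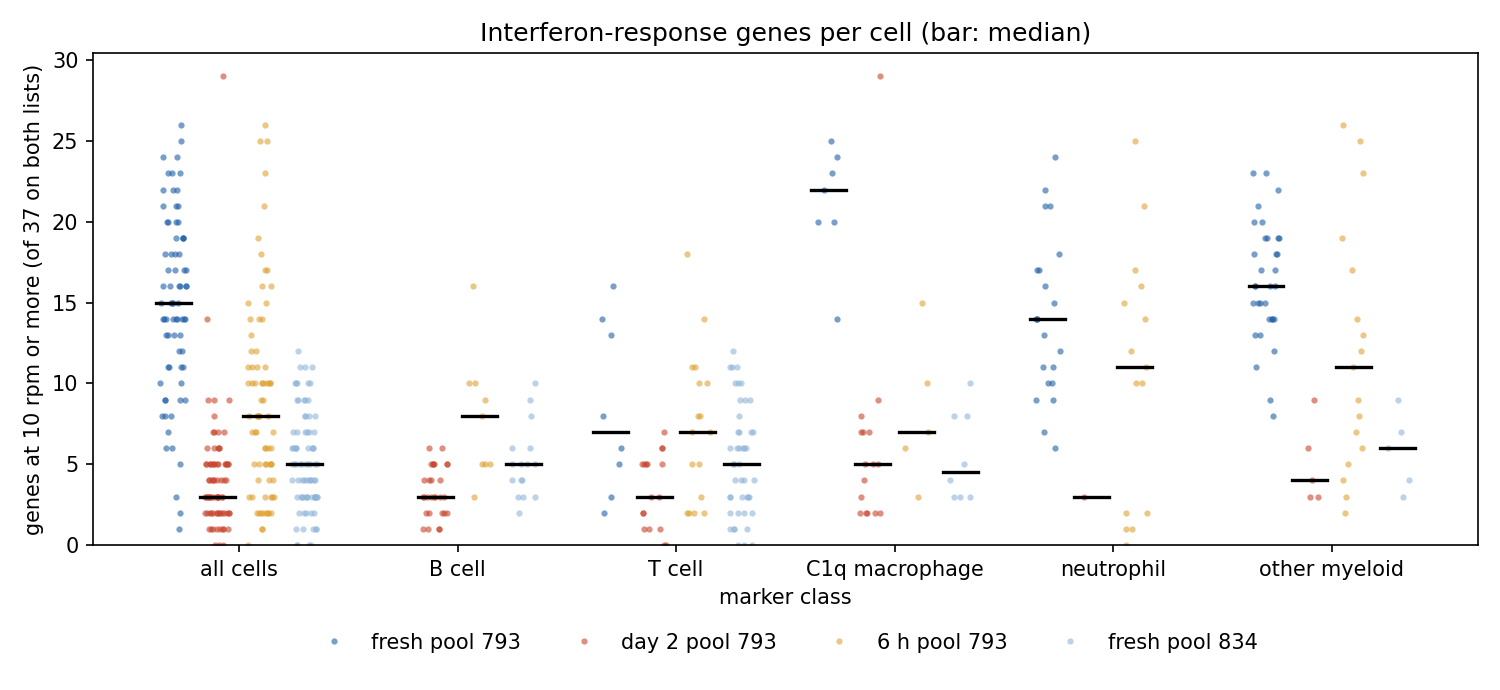
Number of the 37 interferon-response genes at 10 rpm or more per cell, by marker class and sample; points are cells and bars medians. The medians over all cells were 3 at day 2 and 15 in fresh cells of pool IM793, and 1 C1q macrophage marker cell of day 2 stood at 29.

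Stretches before the starts of 3 of these genes are shown, as examples that hold the core described next (150 bases each, GRCm38, RefSeq; chr3:142530186-142530335 on the plus strand for Gbp7, chr11:58199406-58199555 on the plus strand for Igtp and chr4:156200819-156200968 on the minus strand for Isg15). Capitals mark the core of an interferon-stimulated response element, which is GAAA, any 2 bases and GAAA, on either strand.
Gbp7: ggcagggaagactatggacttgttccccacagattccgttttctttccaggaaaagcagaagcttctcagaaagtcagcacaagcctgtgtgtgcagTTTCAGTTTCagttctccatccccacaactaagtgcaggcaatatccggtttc
Igtp: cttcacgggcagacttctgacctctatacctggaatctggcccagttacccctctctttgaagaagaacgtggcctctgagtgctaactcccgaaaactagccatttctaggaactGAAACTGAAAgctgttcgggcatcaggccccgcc
Isg15: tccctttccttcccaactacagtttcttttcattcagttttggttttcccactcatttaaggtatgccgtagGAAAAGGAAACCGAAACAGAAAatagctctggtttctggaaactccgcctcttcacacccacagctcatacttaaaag
This core was found in 17 of the 27 listed genes with a window and in 936 of 27025 genes (3.46%). It lay 53 to 44 bases before the start in Gbp7 and 34 to 25 in Igtp, and 3 overlapping copies lay 78 to 57 bases before the start in Isg15. The gamma-activated core TTCNNNGAA was found in 12 of the 27 and in 2197 of 27025 (8.13%); it may share letters with the heat shock core. Over all cells, Gbp7 was at 98.9 rpm at day 2 and 656 rpm in fresh cells, Igtp at 91.9 and 470 rpm, and Isg15 at 16.5 and 138.6 rpm.

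Over all cells, antigen presentation genes split by class of molecule, beside 29 B marker cells at day 2 and 0 in fresh cells. All 10 MHC class II genes were higher at day 2, beside 57.1% of all genes, with a median of 0.79 and 3 at least 4-fold higher (background 2.52%): H2-Ob (366 and 14.3 rpm), H2-Oa (170 and 3.76 rpm) and H2-DMb2 (478 and 83.7 rpm). Cd74, the invariant chain, was at 8918 and 4281 rpm. Within C1q macrophage marker cells the list median was 0.25, where that of all genes was -0.0040, and within other myeloid marker cells it was -0.29, where that of all genes was -0.81. Of 12 MHC class I genes, 10 were lower at day 2, with a median of -1.05 (a smaller difference against the fresh cells of both pools, given below). Within classes the median was -0.55 in T, -0.93 in C1q macrophage and -0.19 in other myeloid marker cells. In the last class it lay above that of all genes, as for class II. Over all cells, B2m, the light chain, was at 2687 and 5393 rpm and Tap1, a peptide transporter, at 202.1 and 588 rpm. Psmb8, an immunoproteasome subunit, was at 496 and 1436 rpm. Psmb8 was also lower within C1q macrophage marker cells, at 320 and 1112 rpm, present in 6 of 16 day 2 and 7 of 7 fresh cells.

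All 79 cytosolic ribosomal protein genes were higher at day 2, beside 57.1% of all genes, with a median log2 ratio of 0.81 and none past 4-fold. These genes took a median of 7.02% of counts per cell at day 2 and 3.82% in fresh cells. The median share was 9.39% and 7.45% in T, 3.08% and 3.12% in C1q macrophage, and 5.94% and 4.00% in other myeloid marker cells of day 2 and fresh kidney. In B marker cells it was 8.50% at day 2, 5.18% at 6 h and 4.67% in fresh pool IM834, and it was 0.659% in fresh neutrophil marker cells. Within classes the list median was 0.24 in T, 0.08 in C1q macrophage and 0.35 in other myeloid marker cells, where the median of all genes was -0.81 in the last. Mitochondrially encoded genes had a median of 0.58 over all cells, with 14 of 15 higher beside that 57.1%, but all 15 were lower in C1q macrophage marker cells (median -0.79), beside 49.8% of all genes higher there. In that class 1 fresh cell gave 26.2% of its counts to mitochondrial genes and 1 day 2 cell 13.1%, and the class medians were 2.62% and 2.44%.

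**Figure D4:**
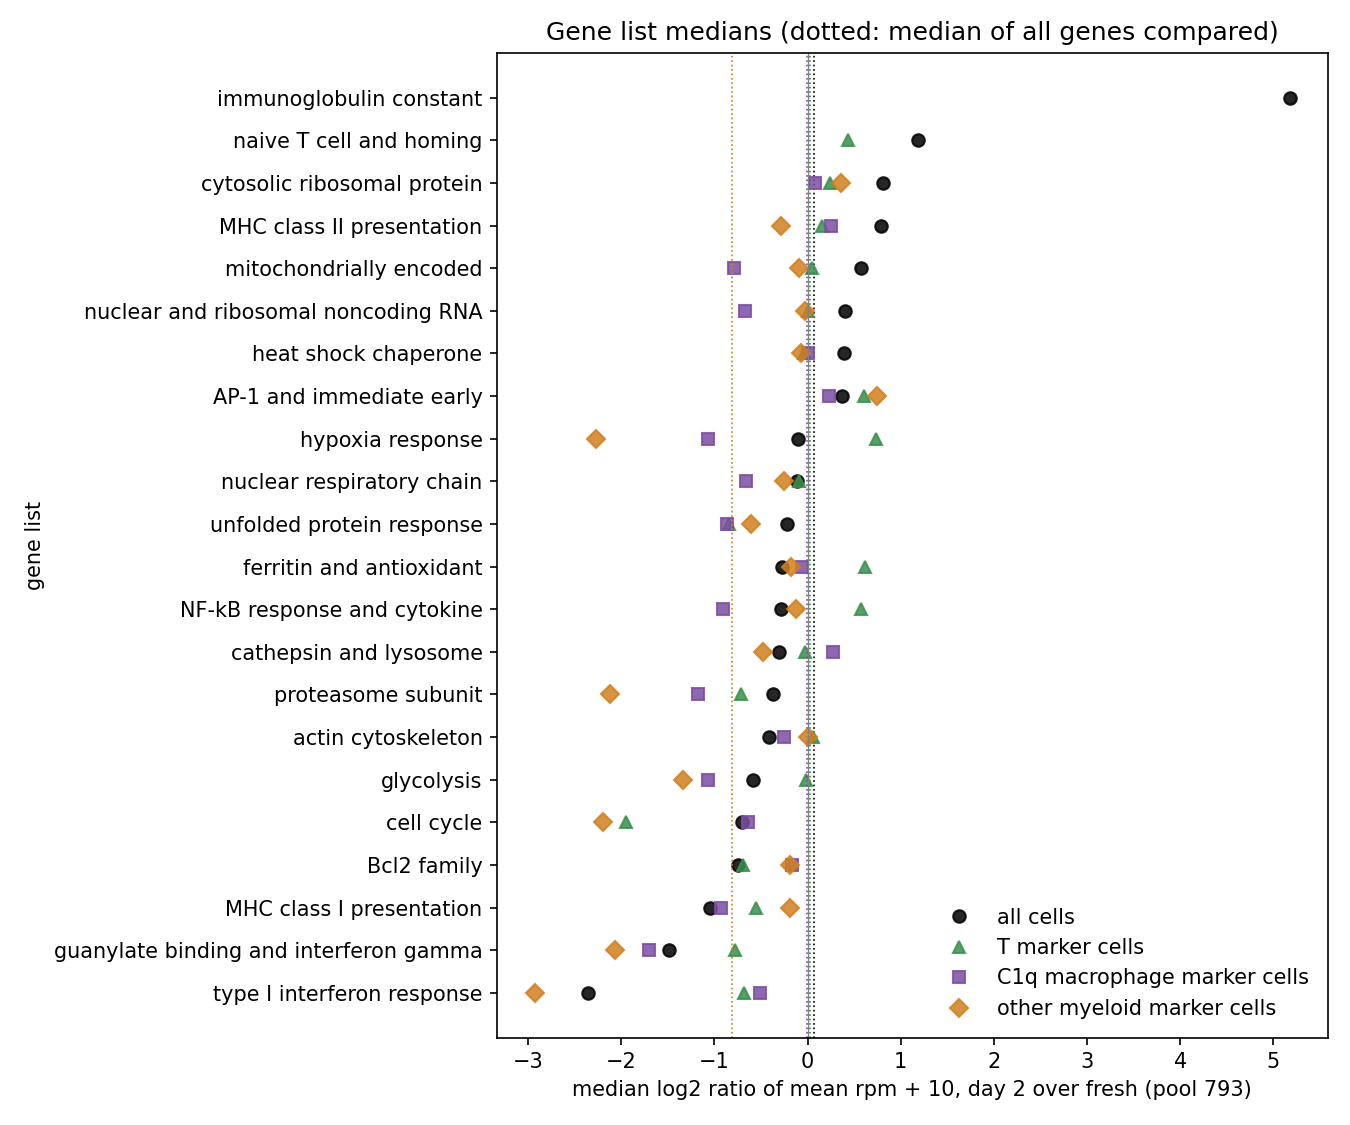
Median log2 ratio of mean rpm + 10, day 2 over fresh of pool IM793, for each gene list with at least 3 genes compared, in all cells and in 3 marker classes; dotted lines give the median of all genes compared, which was -0.81 in other myeloid marker cells. Both interferon lists were below those lines in all cells, in T and in C1q macrophage marker cells, and in other myeloid marker cells.

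The counts of the other lists are read beside 57.1% of all genes higher at day 2. That share moved with the scaling, as given below, and the counts hold for the mean rpm used here. Glycolysis genes had 14 of 16 lower (median -0.58), among them Pkm (758 and 1736 rpm) and Gapdh (565 and 1238 rpm). Proteasome subunits had 24 of 36 lower (-0.37), actin cytoskeleton genes 18 of 20 (-0.41), Bcl2 family genes 9 of 13 (-0.74), cathepsin and lysosome genes 12 of 18 (-0.30) and ferritin and antioxidant genes 11 of 18 (-0.27). The actin list median was 0.05 in T, -0.25 in C1q macrophage and 0.0045 in other myeloid marker cells, where that of all genes was -0.81 in the last. Cell cycle genes had 11 of 13 lower (-0.70, with a smaller difference against the fresh cells of both pools, given below). Mki67, a marker of cycling cells, was read in 1 day 2 and 21 fresh cells. The 69 nuclear respiratory chain genes had 41 lower (-0.11), unfolded protein response genes 8 of 13 (-0.22) and hypoxia response genes 4 of 7 (-0.10). NF-kB response and cytokine genes had 12 of 18 lower (-0.28). In that list Il1b was at 325 and 3412 rpm and Cxcl2 at 107.1 and 915 rpm, and Cxcl16 was higher at day 2 (log2 ratio 1.67). In T marker cells the medians of the NF-kB, ferritin and hypoxia lists were 0.57, 0.61 and 0.73. In C1q macrophage and other myeloid marker cells each was negative. Naive T cell and homing genes had 6 of 8 higher (1.19, but -0.28 against the fresh cells of both pools), of which Ccr7 (1074 and 122.7 rpm) was present in 19 of 29 B and 12 of 17 T marker cells of day 2. Among noncoding RNAs, Neat1 was at 262.2 and 1456 rpm and Rn7sk at 87.9 and 7.81 rpm, present in 47 and 14 cells. Of the 6 immunoglobulin constant genes compared, 4 had no read in fresh cells and entered only through day 2 cells (median over the 6 genes 5.18, or 11.2 with genes unread in 1 group set at 3 counts over that group), and of the cytotoxic list only Klrk1 passed the filter (-1.86). Of its members that did not pass, Ccl5 was higher at day 2 (2.10), and Nkg7 (-1.29) and Ifng (-2.84) were lower.

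Fewer genes were detected per cell at day 2. The median was 1731 (635 to 6305) against 2649 (highest 5626) in fresh cells. After thinning each cell to 100000 counts the medians were 1289 and 2227 over all cells, with 1 fresh cell left out, 1260 and 1774.5 in T, 1530.5 and 3083 in C1q macrophage and 1364 and 2236 in other myeloid marker cells. The medians without thinning in these 3 classes were also lower at day 2: 1697 and 2167 in T marker cells, 1915.5 and 3738 in C1q macrophage marker cells, and 1708 and 2735 in other myeloid marker cells. Fresh cells of pool IM834 had 1789, 2221 and 1996 in the same classes without thinning, and 1508, 1859.5 and 1696 after it. The thinned values were nearer to day 2 than to fresh cells of pool IM793 in C1q macrophage and other myeloid marker cells. In T marker cells the thinned value was about midway. In C1q macrophage marker cells the 16 day 2 cells ran from 635 to 2608 genes and the 7 fresh cells from 1589 to 4521. The ranges of day 2 and fresh overlapped in all 3 classes.

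**Figure D5:**
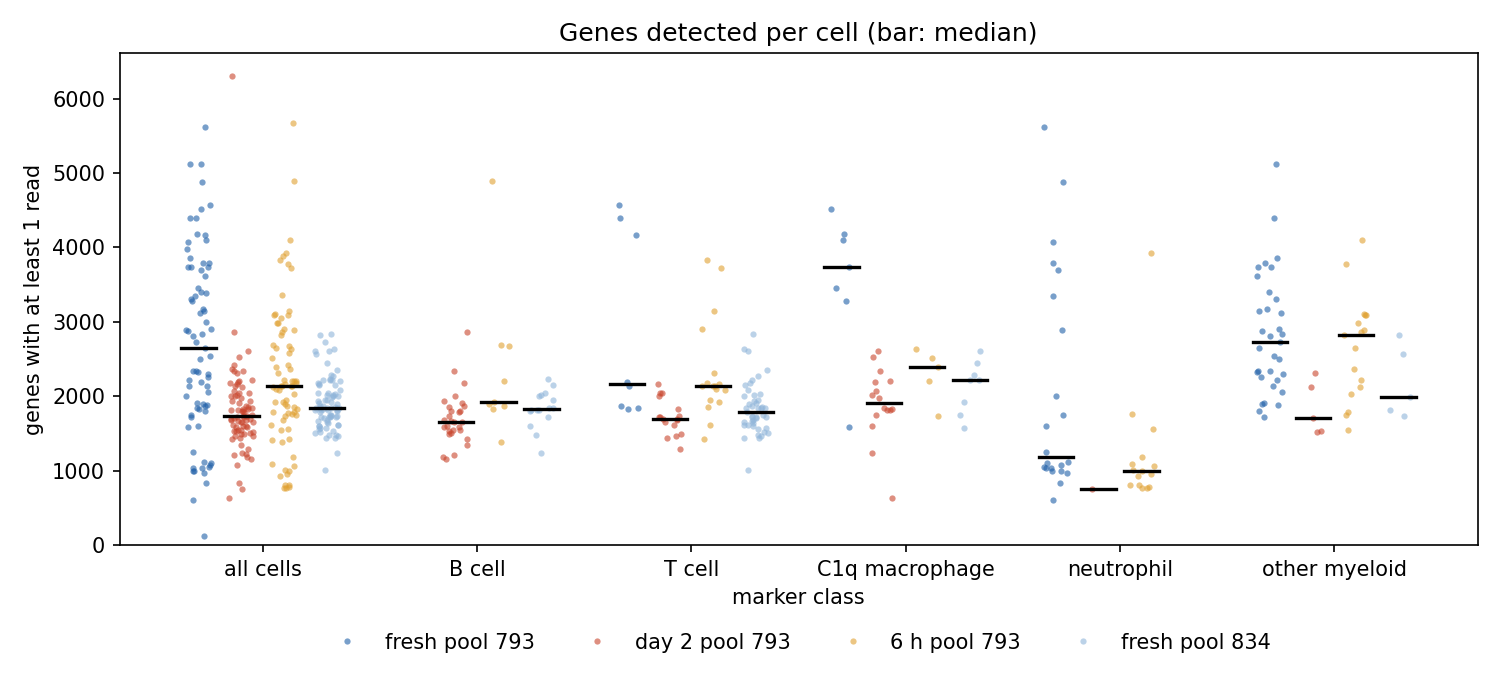
Genes with at least 1 read per cell, by marker class and sample; points are cells and bars medians. The medians over all cells were 1731 at day 2 and 2649 in fresh cells of pool IM793, and in T marker cells 1697 and 2167.

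Of 6103 genes compared in T marker cells (17 of day 2 and 8 fresh), 606 (9.93%) were at least 4-fold higher at day 2 and 703 (11.5%) at least 4-fold lower, 21.4% in all. Of the cytotoxic list 6 genes were compared and of the cell cycle list 16, and in each list 3 had no read in the day 2 cells and entered only through fresh cells, so no count of lower genes is given. Ifng, the gene of interferon gamma, was present in 3 of 8 fresh cells (highest 8640 rpm) and 0 of 17 day 2 cells, and Gzmb, a cytotoxic protease, in 3 of 8 and 0 of 17. Nkg7 was present in 3 of 8 and 0 of 17, and Mki67 in 3 of 8 and 0 of 17. By the floor of 3 cells, 0 of 17 allows up to 17.6%. Klf2, a factor of quiescent and recirculating T cells, was present in 10 of 17 day 2 cells, 1 of 8 fresh cells, 12 of 17 cells of 6 h and 39 of 45 fresh cells of pool IM834. With 8 fresh cells a share of 3 has an exact interval of 8.52 to 75.5%.

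In C1q macrophage marker cells, 6640 genes were compared, of which 604 (9.10%) were at least 4-fold higher and 562 (8.46%) at least 4-fold lower at day 2, 17.6% in all. Tnfaip3, a brake on NF-kB signalling, was present in 5 of 7 fresh and 0 of 16 day 2 cells, and Gbp4 in 5 of 7 and 0 of 16. Il1b was present in 5 of 7 and 9 of 16 cells. Proteasome subunit genes had a median of -1.18 in this class, with 28 of 36 lower (1 of the 36 unread in 1 group), and cathepsin and lysosome genes one of 0.28, with 13 of 17 higher, beside 49.8% of all genes higher in the class.

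In other myeloid marker cells, 7545 genes were compared between 5 day 2 and 33 fresh cells, of which 490 (6.49%) were at least 4-fold higher and 2260 (30%) at least 4-fold lower, 36.4% in all. With 5 cells a gene is easily read in none of them, and the median log2 ratio over all genes was -0.81. No gene met the naming rule upward. The 10 lowest ratios that met it were those of Irf7 (0 rpm at day 2 and 1008 rpm in fresh cells, read in 29 of 33), Tspo (0.238 and 725 rpm), Ly6a (0.238 and 699 rpm), Gbp7 (0 and 542 rpm), Lyn, a Src family kinase (12.97 and 1131 rpm), Plekho2 (0.620 and 507 rpm), Tgm2 (0 and 457 rpm), Gsdmd, the pore-forming gasdermin D (0 and 445 rpm), Ly6i (9.53 and 873 rpm) and Nfil3 (0 and 429 rpm). In this class 33.2% of all genes were higher at day 2, and both interferon lists lay below the class median, at -2.93 for type I genes and -2.07 for guanylate binding genes. Of the 16 genes compared in each list, 11 and 9 had no read in 1 group, so no count of lower genes is given. With genes that had no read in 1 group set at the level of 3 counts over that group, these medians were -5.95 and -3.39. Csf1r, the growth factor receptor of the mononuclear phagocyte lineage, was present in 4 of 5 and 28 of 33 cells, with means of 2945 and 1754 rpm.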

How the data were processed

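The authors mapped reads to mouse GRCm38 with STAR and counted them per gene with HTSeq, as the methods and the submitters' processing notes state, left out cells under 1000 reads, and deposited raw counts. Their versions are not stated in those sources. Spike-in rows (96) and a vector row (1) were dropped and each count was scaled by its cell's total (Python 3.11.15, pandas 2.3.3, numpy 2.4.6, scipy 1.17.1). Doublets were not called, and cells meeting several marker sets were kept apart. Ratios used a pseudocount of 10 rpm over genes read in 10% or more of the compared cells. Scaling factors for alternatives came from edgeR 4.0.16 and DESeq2 1.42.0 (R 4.3.3), which tested nothing. The code was tested on simulated data. Members and lists were chosen with earlier results of these data known. Of the listed genes, 3 had no row under their names. Named by rule were all markers, the 4 highest members of each list with, where directions differed, its largest increase and decrease, and the 15 (all cells) or 10 (other myeloid cells) largest increases and decreases whose detection moved by 20 points the same way with no cell holding 20% of the level. All other named genes, among them Jun, Egr1, Dnajb1, Hspa1b, Zbp1, Igtp, Isg15, Tap1, H2-Oa, H2-Ob, H2-DMb2, Cxcl2, Gzmb, Tnfaip3, Gbp4, Fcgr4, Cd4 and Cd8a, were chosen after their values were seen. Some genes that the rule names are not reported here. Each group was 1 sample, so no replicate could be left out.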

Additional observations from a re-analysis of the deposited data

Results flagged for a closer look

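Rows that name no mouse gene also held counts. A vector sequence row held 400 counts at day 2, in 9 of 78 cells, and 100 counts in fresh cells, in 13 of 75 cells, which were 0.000579% and 0.000198% of all counts. Its median share per cell was 0.343% in fresh cells of pool IM834. The spike-in rows held 0.000351% of counts at day 2 and 0.000255% in fresh cells. These rows stand here because they lie outside the gene comparisons and above 0.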

How the results depend on the processing

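No paired analysis was possible because each group was 1 sample and replicate numbers only name cells. The recomputed values outside the limits set for them follow. The sign differed from the reported one in 21 recomputed values, 10 of them within those limits, among them the heat shock chaperone list by mean log2 and in T and other myeloid marker cells. With fresh cells of both pools as the comparator, genes per cell differed by -272.5, and the shares of B, T, neutrophil and other myeloid marker cells by 26.9, -12.2, -12.8 and -17.9 percentage points, a change of sign for T. Within classes (T and C1q macrophage marker cells were added after seeing the data, as were all class values of gene lists), genes per cell differed by -470 in T, -1822.5 in C1q macrophage and -1027 in other myeloid marker cells.

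Genes at least 4-fold higher over all cells were 1.67% of those compared with TMM factors, 2.44% without a filter (415 genes), 4.63% with a pseudocount of 1, 1.08% by mean log2(rpm + 1), 0.641% with both fresh pools, 9.93% in T and 9.10% in C1q macrophage marker cells. Those at least 4-fold lower were 2.41% without a filter (410 genes), 6.45% with a pseudocount of 1, 10.6% by mean log2, 11.5% in T and 8.46% in C1q macrophage marker cells. Of the genes past 4-fold, 39.1% were higher as reported, 25.96% with TMM, 29.04% with size factors, 50.3% without a filter, 9.20% by mean log2 and 19.3% with both fresh pools. In other myeloid cells, 46.9% were lower with a pseudocount of 1, and 3.09% were higher and 15.8% lower by mean log2.

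List medians by mean log2, where the median of all genes was -0.57, were 3.42 for immunoglobulin constant, 1.41 for ribosomal protein, 1.12 for mitochondrially encoded, -1.46 for nuclear respiratory, -0.88 for AP-1, -1.29 for NF-kB, -2.99 for type I interferon, -2.50 for guanylate binding, 1.45 for MHC class II, -2.81 for MHC class I, -1.11 for hypoxia, -2.40 for glycolysis, -1.52 for unfolded protein, -1.53 for Bcl2, -1.19 for ferritin, -1.84 for proteasome, -1.82 for actin and -2.11 for cathepsin genes. Immunoglobulin constant genes stood at 7.41 with a pseudocount of 1, and type I interferon genes at -1.63 without a filter. With both fresh pools the medians were 1.77 for immunoglobulin constant, -1.68 for type I interferon, -0.52 for MHC class I, -0.19 for cell cycle and -0.28 for naive T genes.

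In T marker cells they were 0.24 for ribosomal protein, 0.051 for mitochondrially encoded, 0.57 for NF-kB, -0.68 for type I interferon, -0.78 for guanylate binding, 0.15 for MHC class II, -0.55 for MHC class I, 0.73 for hypoxia, -0.021 for glycolysis, -0.84 for unfolded protein, 0.61 for ferritin, -1.95 for cell cycle and 0.44 for naive T genes. In C1q macrophage marker cells they were 0.084 for ribosomal protein, -0.79 for mitochondrially encoded, -0.66 for nuclear respiratory, -0.90 for NF-kB, -0.51 for type I interferon, 0.25 for MHC class II, -1.07 for hypoxia, -0.87 for unfolded protein, -0.17 for Bcl2, -1.18 for proteasome, 0.28 for cathepsin and -0.67 for noncoding genes. In other myeloid marker cells they were -0.087 for mitochondrially encoded, -2.93 for type I interferon, -2.07 for guanylate binding, -0.29 for MHC class II, -0.19 for MHC class I, -2.28 for hypoxia, -1.34 for glycolysis, -0.19 for Bcl2, -2.12 for proteasome and -2.19 for cell cycle genes. The cause was not tested. With 1 sample a group and 5 to 17 cells in the smaller classes at day 2, depth and cell number limit these ratios, and intervals cover counting error only.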
